A study of Mus musculus with 9 samples.

Results

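Prostaglandins, thromboxane and leukotrienes are lipid mediators that cells of the immune system make from arachidonic acid. The 10 genes described here encode enzymes and one helper protein of this synthesis. They were chosen by symbol for their role in the pathway, with earlier results of these data known. All 10 were found among the 24445 genes of the count table. RNA had been sequenced from macrophages differentiated in culture from bone marrow of C57Bl/6 mice, in 9 libraries that form 3 groups of 3. In the control group, Veh_N, vehicle was given for 1 h and no LPS followed during the next 24 h. In Veh_LPS the same vehicle step preceded 24 h of lipopolysaccharide (LPS), the bacterial ligand of Toll-like receptor 4. In D2HG_LPS the cells were given D-2-hydroxyglutarate (D2HG), as the octyl ester, for the first hour and LPS for the 24 h after it. D2HG without LPS, and the ester of another acid, were not among the groups. The labels state neither a dose nor whether replicates were separate animals or cultures. The p-values therefore reflect only how much these libraries vary, and that variation may be technical.

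The pathway begins with cytosolic phospholipase A2 (Pla2g4a), which cuts arachidonic acid out of membrane lipids. The cyclooxygenases Ptgs1, known as the constitutive form, and Ptgs2, known as the inducible form, convert it to prostaglandin H2. Terminal enzymes then make prostaglandin E2 (Ptges, the microsomal prostaglandin E synthase), thromboxane A2 (Tbxas1) or prostaglandin D2 (Hpgds, the hematopoietic synthase). In the leukotriene branch, 5-lipoxygenase (Alox5) works with its activating protein in the nuclear membrane (Alox5ap) to make leukotriene A4. Lta4h converts this to leukotriene B4, which attracts neutrophils, and Ltc4s converts it to leukotriene C4, the first of the cysteinyl leukotrienes.

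The promoters of both cyclooxygenases and of Ptges are shown because these 3 genes carry the main contrasts of the data. Each sequence holds the 250 bases before the RefSeq start (GRCm38.p6), read 5′ to 3′ on the strand of the gene: chr2:36230176-36230425 (+ strand) for Ptgs1, chr1:150099781-150100030 (+ strand) for Ptgs2 and chr2:30903298-30903547 (- strand) for Ptges. Capitals mark matches to motifs searched on both strands, which were the TATA box (TATAAA), the E-box (CACGTG), the cAMP response element (TGACGTCA), a C/EBP-type motif (TTNCNNAA) and the NF-kB consensus.
Ptgs1: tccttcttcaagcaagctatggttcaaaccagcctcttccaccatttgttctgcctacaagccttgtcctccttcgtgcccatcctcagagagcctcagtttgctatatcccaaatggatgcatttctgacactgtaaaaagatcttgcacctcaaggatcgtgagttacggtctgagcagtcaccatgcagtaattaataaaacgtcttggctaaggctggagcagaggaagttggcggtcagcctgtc
Ptgs2: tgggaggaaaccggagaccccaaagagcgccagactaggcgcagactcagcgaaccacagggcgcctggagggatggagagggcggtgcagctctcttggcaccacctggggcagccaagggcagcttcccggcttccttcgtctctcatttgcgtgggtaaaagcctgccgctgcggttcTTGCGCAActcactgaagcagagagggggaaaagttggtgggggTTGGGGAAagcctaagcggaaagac
Ptges: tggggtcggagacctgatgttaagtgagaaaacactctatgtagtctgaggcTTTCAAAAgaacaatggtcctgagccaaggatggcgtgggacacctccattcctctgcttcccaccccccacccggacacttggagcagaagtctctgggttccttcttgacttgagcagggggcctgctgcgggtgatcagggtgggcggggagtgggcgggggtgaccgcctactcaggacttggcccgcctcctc
All capitals in these windows are matches to the C/EBP-type motif. In Ptgs2 one match began 69 bases before the start, where TTGCGCAA matches on both strands, and another began 25 bases before it. The match in Ptges began 198 bases before the start, and the Ptgs1 window held none of the motifs. Among 32851 windows of this length in the RefSeq table, 36.8% held the C/EBP-type motif, 12.4% the TATA box, 7.25% the NF-kB consensus, 6.02% the E-box and 1.55% the cAMP response element. A match is a run of letters and not a measured binding site.

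Libraries held 9451258 to 13759935 counts with 1 transcript taken per gene, and 11622 genes, among them all 10 of the list, had enough counts to be tested. Levels are given in CPM, counts relative to library size after scaling with the TMM factors of edgeR. The first principal component, with 91.5% of the variance, separated Veh_N from both LPS groups. On the next, with 2.92%, Veh_LPS replicate 3 (-27.4) and Veh_N replicate 1 (-20) stood apart from the other 7 libraries (-3.93 to 15.9). These 2 libraries also had the highest share of counts in transcripts without a symbol (2.28% and 2.37%, against 0.676% to 1.93% elsewhere). The summed level of 8 macrophage markers was 13276 to 15736 CPM in Veh_N, 12151 to 12655 in Veh_LPS and 12222 to 12957 in D2HG_LPS. All 8 had counts in every library, which bears out the labelled cell type. Lyz2 was the largest part of the sum (8547 CPM in Veh_N, 5336 in Veh_LPS), and the sum hides changes both ways. Mean levels of Csf1r, Cd68, Itgam and Lyz2 were lower in both LPS groups than in Veh_N. Those of Adgre1, Fcgr1, Mertk and Cd14 were higher.

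With LPS, Pla2g4a, Ptgs2 and Ptges rose, while Ptgs1, the thromboxane and prostaglandin D2 synthases and most of the leukotriene genes fell. In Veh_LPS over Veh_N these 3 were called higher. Ptgs1, Tbxas1, Hpgds, Alox5ap, Lta4h and Ltc4s were called lower, and Alox5 was not called. A call is a Benjamini-Hochberg adjusted p below 0.05, over all genes tested, in the quasi-likelihood test of edgeR. The 9 of 10 genes called stand beside 73.9% of all genes tested (35% higher and 38.9% lower), so the number of calls is near the background of this comparison. The libraries of both groups did not overlap for those 9 genes, as for 73.5% of all genes tested. The median log2 fold change of the 10 was -0.68, beside -0.07 for all genes. In bulk RNA, fewer cells of a type and less RNA per cell cannot be told apart.

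**Figure D1:**
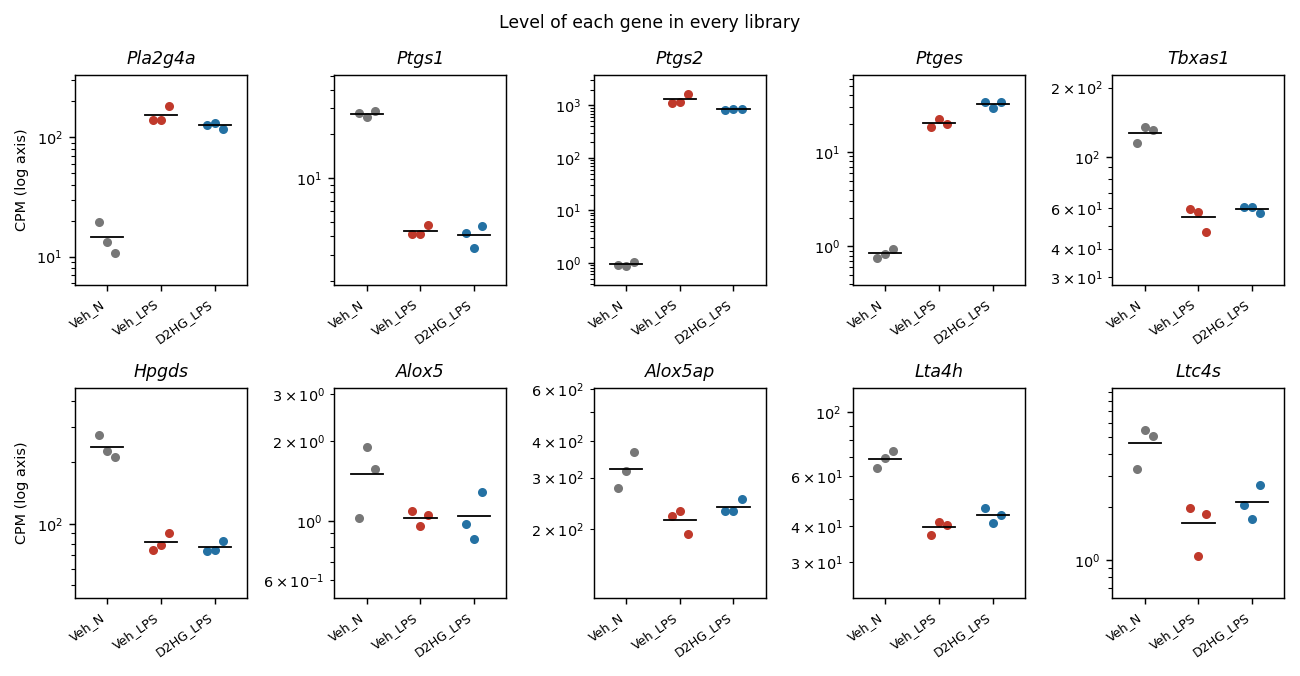
Level of each gene in every library, in CPM on a log axis whose range differs between panels; points are libraries and the line is the group mean (n = 3). Pla2g4a, Ptgs2 and Ptges are far higher in both LPS groups than in Veh_N, and Ptgs2 and Ptges are the 2 genes whose D2HG_LPS points were called different from Veh_LPS, in opposite directions.

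At the first step, Pla2g4a stood at 19.6, 13.2 and 10.7 CPM in the 3 Veh_N libraries, at 138, 138 and 181 in Veh_LPS and at 125, 132 and 117 in D2HG_LPS. Every LPS library was above every Veh_N library, and the highest of each vehicle group was the library that stood apart on the second principal component. Its log2 rise in Veh_LPS over Veh_N was 3.39 ± 0.19 (SE), or 10.5-fold (edgeR, Benjamini-Hochberg adjusted p = 3.33e-09). Without the 2 libraries that stood apart the log2 rise was 3.52 ± 0.10.

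The cyclooxygenase genes moved in opposite directions. Ptgs2 had only 13, 15 and 13 counts in the Veh_N libraries, or 0.896, 0.889 and 1.02 CPM, against 1114, 1174 and 1665 CPM in Veh_LPS and 830.4, 842 and 873 CPM in D2HG_LPS. No group overlapped another, and Veh_LPS replicate 3 was well above the rest of its group. The fitted rise in Veh_LPS over Veh_N was 1402-fold, with a 95% interval of 9.99 to 10.91 on the log2 scale (edgeR, Benjamini-Hochberg adjusted p = 3.74e-13). Ptgs1 stood at 27.8, 26.3 and 28.6 CPM in Veh_N, at 4.15, 4.14 and 4.81 in Veh_LPS and at 4.19, 3.33 and 4.74 in D2HG_LPS. The 3 Veh_N libraries were all above the LPS libraries, whose 2 groups overlapped. Ptgs1 was 6.27-fold lower in Veh_LPS than in Veh_N (log2 -2.65 ± 0.14, edgeR, Benjamini-Hochberg adjusted p = 2.11e-09), the largest fall among the 10 genes.

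Counted per kilobase of transcript, Ptgs2 made up 2.03%, 2.13% and 2.24% of the cyclooxygenase signal (Ptgs1 plus Ptgs2) in the Veh_N libraries. In Veh_LPS its share was 99.4%, 99.5% and 99.6%, and in D2HG_LPS 99.2%, 99.4% and 99.2%. The share restates the opposite changes of both genes and was not tested.

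Of the terminal prostanoid enzymes, Ptges rose with LPS and the other two fell. Ptges stood at 0.758, 0.83 and 0.94 CPM in Veh_N (11, 14 and 12 counts), at 18.4, 22.3 and 19.9 in Veh_LPS and at 34.0, 29.2 and 34.4 in D2HG_LPS. The groups did not overlap, and D2HG_LPS was the highest. Its rise in Veh_LPS over Veh_N was 23.7-fold (log2 4.57 ± 0.17, edgeR, Benjamini-Hochberg adjusted p = 7.01e-11). Tbxas1 stood at 115, 135 and 130.2 CPM in Veh_N, at 59.3, 57.9 and 47.0 in Veh_LPS and at 60.5, 60.7 and 56.9 in D2HG_LPS. The Veh_N libraries were all the highest, and both LPS groups shared a range. Tbxas1 was 2.32-fold lower in Veh_LPS than in Veh_N (log2 -1.21 ± 0.10, edgeR, Benjamini-Hochberg adjusted p = 1.97e-07). The gene overlaps Hipk2 in the RefSeq table, and with no statement of whether strand was used in counting, reads of the pair may be shared. Hpgds stood at 272, 228 and 213 CPM in Veh_N, at 74.7, 78.5 and 90.1 in Veh_LPS and at 73.8, 74.5 and 82.3 in D2HG_LPS. Here too Veh_N was above all 6 LPS libraries. Hpgds was 2.93-fold lower in Veh_LPS than in Veh_N (log2 -1.55 ± 0.11, edgeR, Benjamini-Hochberg adjusted p = 2.78e-08).

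The balance of Hpgds and Ptges RNA shifted accordingly. Per kilobase of transcript, Hpgds was 376, 288 and 238 times Ptges in the Veh_N libraries, 4.26, 3.7 and 4.76 times in Veh_LPS and 2.28, 2.68 and 2.51 times in D2HG_LPS. Hpgds thus stayed the more abundant of this pair in every library. The other prostaglandin E synthase genes, Ptges2 and Ptges3, do not enter the ratio. They stood at 7.99 and 14.4 CPM in Veh_N, against 0.843 for Ptges. In Veh_LPS they stood at 11.1 and 29.9 CPM, against 20.2 for Ptges, and both were called higher. The ratio therefore does not stand for all prostaglandin E2 synthase RNA. This ratio, too, restates the values of its genes and was not tested.

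Mast cells and platelets also carry these enzymes, so their markers are given beside the falls. Of 11 mast cell and basophil markers 2 passed the filter, and Mcpt4, Tpsb2, Tpsab1 and Fcer1a had 0 counts in all 9 libraries. Cpa3, Ms4a2, Cma1, Mcpt8 and Prss34 each summed to between 0 and 6 counts in a group. Kit, a receptor of mast cells and early progenitors, was at 6.34 ± 0.539 CPM (SD, n = 3) in Veh_N and 0.734 ± 0.125 in Veh_LPS, and passed the filter on low counts only through Veh_N. Hdc, which makes histamine, stood at 0.328 CPM in Veh_N and 110.1 in Veh_LPS. Hdc passed the filter only through the LPS groups, so these values are not read as a rise. With it the list summed to 6.35 to 7.83 CPM in Veh_N, 106 to 118 in Veh_LPS and 71.1 to 72.1 in D2HG_LPS. The 6 megakaryocyte and platelet markers, of which 3 were tested, summed to 2.34 to 3.29 CPM in Veh_N, 3.15 to 4.35 in Veh_LPS and 2.93 to 6.12 in D2HG_LPS, with Gp6 at 0 in both vehicle groups. Stromal and endothelial markers, of which 2 of 8 were tested and Pdgfra was at 0 in every group, summed to 200 to 219 CPM in Veh_N and 28.9 to 33.7 in Veh_LPS. Of the tested pair, Vwf, which made up nearly all of the sum, fell from 208 to 28.7 CPM. The endothelial cadherin Cdh5 stood at 0.19 CPM in Veh_N and 2.33 in Veh_LPS. Cdh5 passed the filter on low counts only through the LPS groups, so these values are not read as a rise. The part of the cells that carry Kit or Vwf in the falls of Hpgds, Tbxas1 and Ptgs1 was not tested.

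In the leukotriene branch, Alox5ap, Lta4h and Ltc4s fell with LPS and Alox5 stayed near the detection limit. Alox5 had 15, 32 and 20 counts in Veh_N, 11, 9 and 12 in Veh_LPS and 10, 10 and 13 in D2HG_LPS, which is 1.03, 1.9 and 1.57 CPM, then 1.09, 0.955 and 1.05, then 0.975, 0.854 and 1.28. It passed the filter on low counts only through Veh_N, and Veh_N replicate 1 lay inside the range of the LPS libraries. The log2 fold change in Veh_LPS over Veh_N was -0.54, with a 95% interval of -1.24 to 0.15 (edgeR, Benjamini-Hochberg adjusted p = 0.139). With upper-quartile scaling (log2 -0.86, adjusted p = 0.026 by edgeR) and with library totals alone (-1.21, adjusted p = 0.0031), which moved the median of all genes to -0.39 and -0.74, it passed the threshold. A gene admitted only through the group where it is highest cannot support a fall, so these values are not read as one.

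Its partner Alox5ap was the most abundant of the 10 genes in Veh_N per length, at 276, 316 and 367 CPM, against 223, 231 and 193 in Veh_LPS and 232, 231 and 253 in D2HG_LPS. All Veh_N libraries were above all LPS libraries. With TMM scaling Alox5ap was 1.48-fold lower in Veh_LPS than in Veh_N (log2 -0.57 ± 0.11, edgeR, Benjamini-Hochberg adjusted p = 0.00033). The size depended on the scaling: log2 -0.89 with upper-quartile scaling and -1.24 with library totals alone, which also moved the median of all genes. Per kilobase, Alox5ap was 376 to 603 times Alox5 in Veh_N, 415 to 546 times in Veh_LPS and 444 to 610.4 times in D2HG_LPS, so the helper protein's RNA exceeded that of the enzyme in every library by a factor whose ranges overlapped between groups.

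The enzymes downstream of leukotriene A4 both fell. Lta4h stood at 64.1, 69.1 and 73.6 CPM in Veh_N, at 37.2, 41.6 and 40.3 in Veh_LPS and at 46.3, 41.2 and 43.9 in D2HG_LPS. It was 1.73-fold lower in Veh_LPS than in Veh_N (log2 -0.79 ± 0.09, edgeR, Benjamini-Hochberg adjusted p = 3.5e-06), with no overlap of the libraries. Ltc4s was measured on few reads, with 48, 92 and 65 counts in Veh_N, 20, 10 and 21 in Veh_LPS and 21, 20 and 27 in D2HG_LPS. In CPM these were 3.31, 5.46 and 5.09, then 1.98, 1.06 and 1.84, then 2.05, 1.71 and 2.66. Ltc4s was 2.81-fold lower in Veh_LPS than in Veh_N, with the wide interval of -2.11 to -0.87 on the log2 scale (edgeR, Benjamini-Hochberg adjusted p = 0.00041). Neutrophils are known for leukotriene B4, and 10 of their markers, 6 tested, summed to 33.8 to 40.6 CPM in Veh_N, 75.5 to 93.4 in Veh_LPS and 68.9 to 84.8 in D2HG_LPS. Group means of the list went both ways. S100a8, S100a9, Ngp and Ltf were called higher with LPS. Camp was called higher too, but it passed the filter on low counts only through the LPS groups. Its call is therefore not read as a rise. Mpo went from 1.13 to 0.625 CPM and was not called (edgeR, Benjamini-Hochberg adjusted p = 0.137). Cxcr2, from 0.551 to 0.0975 CPM, and Retnlg, with 14 counts in Veh_N and 0 in Veh_LPS, were not tested. Eosinophil markers (4, of which 2 were tested) summed to 12.4 to 20.3 CPM in Veh_N and 11.7 to 16.7 in Veh_LPS, with Epx at 0 in both LPS groups. Ccr3 carried this sum (12.5 and 13.0 CPM), and Siglecf, the other tested marker, stood at 2.41 CPM in Veh_N and 0.528 in Veh_LPS, having passed the filter only through Veh_N. The part of neutrophils and eosinophils in the falls of Lta4h and Ltc4s was not tested.

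The D2HG comparison, D2HG_LPS over Veh_LPS, separated the prostaglandin E synthase gene Ptges from the cyclooxygenase gene Ptgs2. Ptges was 1.61-fold higher with D2HG and Ptgs2 1.55-fold lower, and the other 8 genes were not called. The comparison called 2.11% of all genes tested, 1.15% higher and 0.955% lower, beside which 2 of 10 were called here. The median log2 fold change of the 10 was 0.06, and of all genes 0.01. Of the 10, 3 had libraries that did not overlap (Ptgs2, Ptges and Pla2g4a), as did 24.2% of all genes tested.

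**Figure D2:**
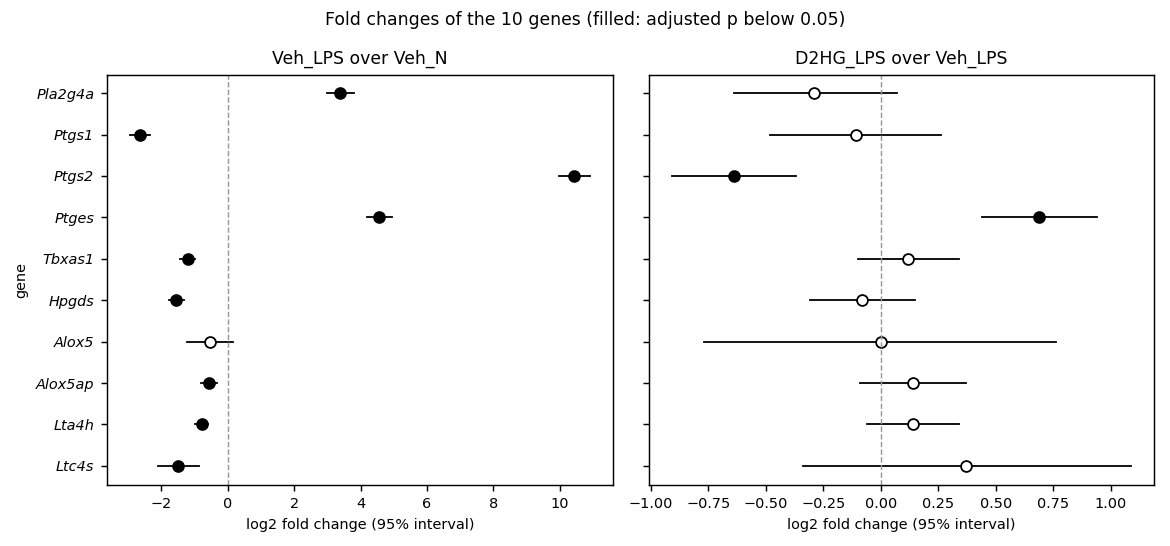
Log2 fold change of each gene with its 95% interval in both comparisons, filled where the adjusted p was below 0.05; the horizontal axes differ. LPS moved the genes from 10.45 (Ptgs2) to -2.65 (Ptgs1), whereas with D2HG only Ptges (0.69) and Ptgs2 (-0.64) were called.

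Ptges averaged 32.6 ± 2.92 CPM (SD, n = 3) in D2HG_LPS and 20.2 ± 1.97 in Veh_LPS. The log2 rise was 0.69 ± 0.11 (SE), with a 95% interval of 0.44 to 0.94, and all 3 D2HG_LPS libraries were above all 3 Veh_LPS libraries (edgeR, Benjamini-Hochberg adjusted p = 0.00781). DESeq2 gave 0.65 (adjusted p = 0.000338). The size held when single libraries were left out, between 0.63 and 0.77 in all alternatives. The call was lost without D2HG_LPS replicate 1 (0.66, edgeR adjusted p = 0.0642), without D2HG_LPS replicate 3 (0.65, 0.0584) and without Veh_LPS replicate 1 (0.63, 0.0585).

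Ptgs2 averaged 848 ± 21.9 CPM (SD, n = 3) in D2HG_LPS and 1318 ± 302 in Veh_LPS. Its log2 fold change was -0.64 ± 0.12, with an interval of -0.91 to -0.37 (edgeR, Benjamini-Hochberg adjusted p = 0.0207). Veh_LPS replicate 3, at 1665 CPM, gave part of that size: without it the value was -0.43 ± 0.07 and was still called (edgeR adjusted p = 0.0115). Leaving out Veh_N replicate 1 as well gave -0.43 ± 0.06 (adjusted p = 0.000198). The call was lost when D2HG_LPS replicate 1, 2 or 3 was left out (-0.62, -0.63 and -0.66, edgeR adjusted p = 0.128, 0.0955 and 0.0946), and without Veh_N replicate 2 (-0.64, adjusted p = 0.0504). DESeq2 gave -0.67 (adjusted p = 0.000917). Even so, Ptgs2 in D2HG_LPS was 902-fold above Veh_N.

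A ratio of both genes, chosen after their values were seen, gives the shift per library. Per kilobase of transcript there were 20.1, 23.2 and 14.6 Ptges per 1000 Ptgs2 in Veh_LPS and 50.1, 42.3 and 48.2 in D2HG_LPS. The mean was 2.43 times as high with D2HG. Since both genes had already been seen to differ in opposite directions without overlap, the separation of the ratio is fixed by them and was not tested. In Veh_N, where both genes were close to their detection limit, the values were 1033, 1139.6 and 1127.

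**Figure D3:**
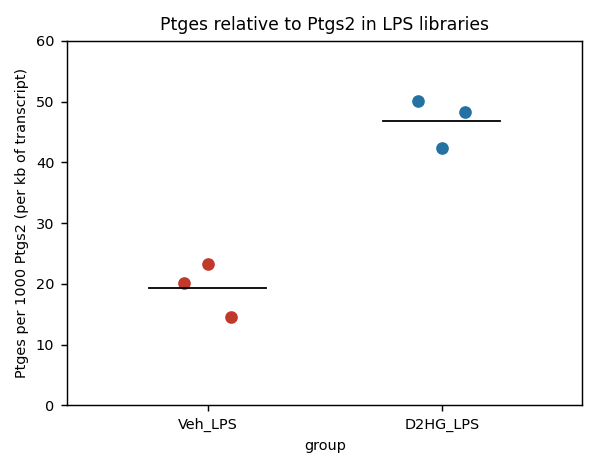
Ptges per 1000 Ptgs2, both per kilobase of transcript, in each LPS library (points) with the group mean (line, n = 3). The D2HG_LPS libraries lie between 42.3 and 50.1 and the Veh_LPS libraries between 14.6 and 23.2.

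For the other 8 genes the intervals are given, which cover only the variation among these libraries, and that may be technical. Pla2g4a, which had no overlap between the groups, had a log2 fold change of -0.29 with an interval of -0.64 to 0.07 (edgeR, Benjamini-Hochberg adjusted p = 0.429), and of -0.14 without Veh_LPS replicate 3. Ptgs1 had -0.11 (-0.48 to 0.26), Tbxas1 0.12 (-0.1 to 0.34) and Hpgds -0.08 (-0.31 to 0.15). In the leukotriene branch Alox5ap had 0.14 (-0.09 to 0.37) and Lta4h 0.14 (-0.06 to 0.34). The intervals were widest for the genes with fewest counts, Ltc4s at 0.37 (-0.34 to 1.09) and Alox5 (-0.77 to 0.76). Those of Alox5 and of the 6 genes before it lie inside a log2 change of 1 in either direction, that of Ltc4s reaches just past it, and none excludes a smaller change.

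Set against Veh_N, the cells given D2HG before LPS had 3 genes higher and 6 lower, in a comparison that called 72.6% of all genes tested (35.4% higher, 37.2% lower). Libraries did not overlap for the 9 called genes, as for 75.6% of all genes tested. This comparison shares its Veh_N libraries with the LPS comparison, so both sets of values are given side by side only. Ptgs2 had log2 9.82 here and 10.45 in Veh_LPS over Veh_N, Ptges 5.26 and 4.57, and Pla2g4a 3.1 and 3.39. Ptgs1 had -2.76 and -2.65, Hpgds -1.63 and -1.55, Tbxas1 -1.09 and -1.21. The leukotriene genes had -1.12 and -1.49 (Ltc4s), -0.65 and -0.79 (Lta4h), -0.42 and -0.57 (Alox5ap) and -0.55 and -0.54 (Alox5, not called in either).

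Per length of transcript the order of the genes was rebuilt by LPS. In Veh_N, Alox5ap led at 256 ± 36.5 CPM per kb (SD, n = 3), followed by Hpgds (68.3 ± 8.75) and Tbxas1 (63.7 ± 5.07), whose libraries overlapped, and by Lta4h (34.0 ± 2.35). Ptgs1 came next at 9.61 ± 0.414, ahead of Ltc4s (7.12 ± 1.77) and Pla2g4a (5.07 ± 1.6), which overlapped each other. Alox5 (0.532 ± 0.154), Ptges (0.231 ± 0.0251) and Ptgs2 (0.21 ± 0.0163) came last, the last pair overlapping. In Veh_LPS the gene that had been last, Ptgs2, was first at 296 ± 67.9 CPM per kb, above Alox5ap (173 ± 16.0) and Pla2g4a (53.3 ± 8.6). Tbxas1 (27.5 ± 3.38) and Hpgds (23.3 ± 2.3) overlapped next, and Lta4h (19.6 ± 1.1) followed. Ptges (5.53 ± 0.541) passed Ltc4s (2.5 ± 0.76) and Ptgs1 (1.52 ± 0.135), which overlapped, and Alox5 (0.365 ± 0.0241) was lowest. In D2HG_LPS, Ptgs2 (191 ± 4.93) and Alox5ap (191 ± 9.77) overlapped at the top, and the other genes kept this order down to Alox5 (0.368 ± 0.0784), with Hpgds (22.1 ± 1.36) and Lta4h (21.6 ± 1.28) overlapping.

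**Figure D4:**
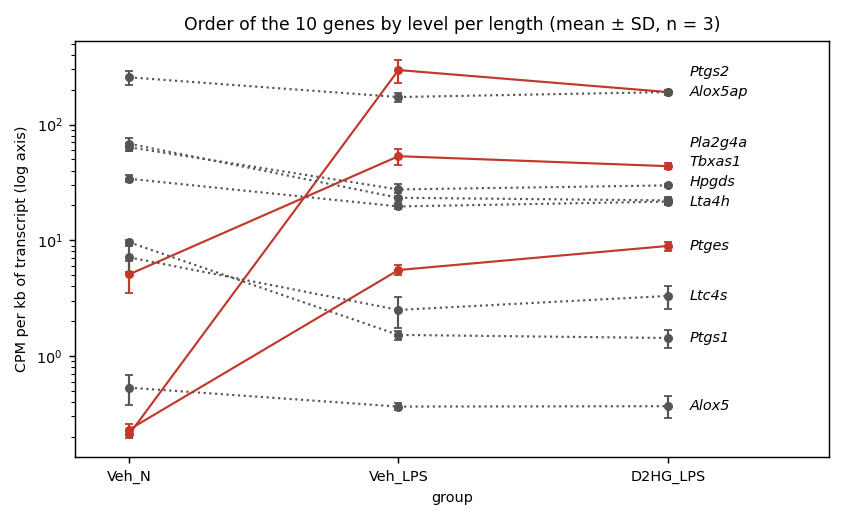
Mean level per kilobase of transcript (CPM per kb, log axis) of the 10 genes in the 3 groups, with bars of 1 SD (n = 3); solid red lines mark Pla2g4a, Ptgs2 and Ptges. Ptgs2 goes from the lowest level in Veh_N (0.21) to the highest in Veh_LPS (296), and Alox5ap is first or level with the first in Veh_N and D2HG_LPS.

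The rest of the pathway was read from 5 lists of 58 genes, of which 41 were tested. With LPS 12 were called higher, 21 lower and 8 not, with a median log2 fold change of -0.63. That is 29.3% higher and 51.2% lower, beside 35% and 38.9% of all genes tested and their median of -0.07. Of the 41, 8 passed the filter on low counts only through Veh_N, Dagla, Hpgd and Ggt5 among them, so the counts of lower genes and this median lean to falls and support nothing. Among genes that release arachidonic acid or return it to lipids, 2 of 12 tested were higher and 6 lower. Pla2g15, a lysosomal phospholipase, went from 209 ± 13.7 to 29.1 ± 1.84 CPM (log2 -2.84 ± 0.09, edgeR, Benjamini-Hochberg adjusted p = 1.19e-11). The diacylglycerol lipase Daglb, which makes the endocannabinoid 2-arachidonoylglycerol, fell as well (118 to 23.3 CPM, log2 -2.34 ± 0.10), and its relative Dagla stood at 11.4 CPM in Veh_N and 0.698 in Veh_LPS. Of the lower genes in this list, Pla2g4b, Pla2g2e and Dagla passed the filter only through Veh_N. Its count of lower genes is therefore not set against the rise of Pla2g4a. Among other prostanoid synthases, 3 of 6 were higher and 3 lower. Ptges3, the cytosolic prostaglandin E synthase and a cochaperone, rose 2.09-fold (14.4 to 29.9 CPM), against the 23.7-fold rise of Ptges, and the carbonyl reductases Cbr1 (log2 -1.35 ± 0.14) and Cbr3 (-1.95 ± 0.21) fell.

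Genes that transport prostaglandins or break them down were mixed. Of 6 tested, 2 were higher (33.3%), 3 lower (50.0%) and 1 not called, beside 35% higher and 38.9% lower over all genes tested. The one not called was the reductase Ptgr1, at 61.5 CPM in Veh_N and 55.9 in Veh_LPS (log2 -0.14 ± 0.10, edgeR, Benjamini-Hochberg adjusted p = 0.238). Hpgd, the dehydrogenase that inactivates prostaglandin E2, had 53, 55 and 64 counts in Veh_N and 1, 1 and 7 in Veh_LPS. The log2 ratio of its summed counts, scaled for depth, was -3.75, with a 95% counting interval of -4.9 to -2.79. Hpgd passed the filter on low counts only through Veh_N, so these values are not read as a fall. Prostaglandin reductase Ptgr2, at 67.5 CPM in Veh_N, was 3.36-fold lower in Veh_LPS (log2 -1.75 ± 0.09, edgeR, Benjamini-Hochberg adjusted p = 1.44e-09), and Zadh2, another reductase of the family, went from 25.2 to 10.1 CPM (-1.31 ± 0.12). Abcc1, an exporter of leukotriene C4, was called higher (log2 0.62 ± 0.09, adjusted p = 2.7e-05 by edgeR), a direction that flipped to -0.05 when libraries were scaled by their totals alone.

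The receptors for prostaglandin E2 did not move as one. Of 9 receptors tested, 4 were higher and 5 lower (44.4% and 55.6%, beside 35% and 38.9% of all genes tested). Ptger3 and Ltb4r1, among the lower, passed the filter on low counts only through Veh_N, and Cysltr2, among the higher, only through the LPS groups. Ptger4 rose from 12.0 to 40.8 CPM (log2 1.77 ± 0.11, edgeR, Benjamini-Hochberg adjusted p = 1.54e-08), while Ptger2, which like it signals through cAMP, fell from 10.8 to 0.853 (-3.67 ± 0.24, adjusted p = 1.49e-08). Ptger1, the calcium-coupled receptor, fell from 81.7 to 35.1 CPM (-1.22 ± 0.08). Ptgdr2, a receptor for prostaglandin D2, rose from 1.53 to 10.4 CPM (2.76 ± 0.18). Among other lipoxygenases and leukotriene steps, 1 of 8 was higher and 4 lower (12.5% and 50.0%, beside the same 35% and 38.9%). Cyp4f18, which inactivates leukotriene B4, fell (15.1 to 2.42 CPM, log2 -2.64 ± 0.21), as did Cyp4f13 (15.6 to 10.1 CPM, -0.63 ± 0.12). Ggt5, which converts leukotriene C4 to D4, stood at 1.76 CPM in Veh_N and 0.513 in Veh_LPS. Alox12, the 12-lipoxygenase, had 5 counts over the Veh_N libraries and 61 over Veh_LPS, a log2 ratio of 4.12 with a counting interval of 2.82 to 5.79. It passed the filter on low counts only through the LPS groups, so these values are not read as a rise.

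**Figure D5:**
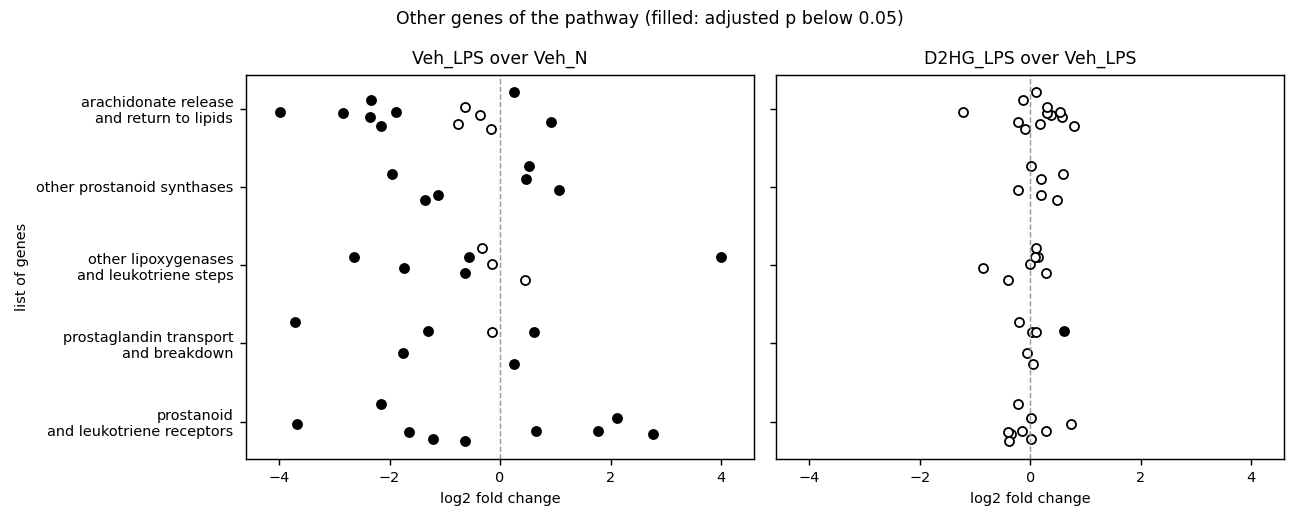
Log2 fold change of the 41 tested pathway genes by list, each point a gene, filled where the adjusted p was below 0.05; the vertical scatter only separates points. Filled points lie on both sides of 0 in every list with LPS (12 higher, 21 lower), and with D2HG a single gene, Zadh2, is filled.

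With D2HG, 1 of the 41 pathway genes was called. Zadh2 stood at 10.9, 9.44 and 10.1 CPM in Veh_LPS and at 14.9, 14.7 and 16.7 in D2HG_LPS, with no overlap. Its log2 rise was 0.61 ± 0.12 (edgeR, Benjamini-Hochberg adjusted p = 0.0257), and D2HG_LPS stayed below the 27.6, 24.6 and 23.3 CPM of Veh_N. The call was lost with 9 of 19 alternatives, among them leaving out any of the D2HG_LPS or Veh_LPS libraries, with values of 0.55 to 0.67 throughout. At an unadjusted p below 0.05, 7 of the 41 were higher and 1 lower (17.1% and 2.44%), beside 8.05% and 7.71% of all genes tested. Their median log2 fold change was 0.08, and that of all genes 0.01. None of the 9 receptors was called, and at an unadjusted p below 0.05 by edgeR 1 was higher (Ptger2, log2 0.73, 0.03 to 1.44) and 1 lower (Ptgdr2, -0.35, -0.68 to -0.03).

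Likeness of pattern was measured for the gene with the largest rise and the one with the largest fall, as the root mean square difference of mean-centred log2 CPM over the 9 libraries. The genes nearest to Ptgs2 were Il6, which encodes interleukin 6 (0.245), Cd69, an early activation antigen (0.253), and Nos2, the inducible nitric oxide synthase (0.315). Il6 stood at 321, 337 and 434 CPM in Veh_LPS and at 217, 227 and 232 in D2HG_LPS, and its log2 fold change with D2HG was -0.69 ± 0.11. Cd69 had -0.26 ± 0.10 and Nos2 -0.2 ± 0.07. The genes nearest to Ptgs1 were Kif3a, a kinesin motor subunit (0.11), Selenop, the plasma selenoprotein P (0.123), and Lbh, a transcription cofactor (0.136). Their log2 fold changes with LPS were -2.65, -2.59 and -2.73. All 9 libraries entered the choice of these 6 genes, so their values describe the choice and were not tested.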

How the data were processed

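Counts of 9 RNA sequencing libraries were analysed. The authors deposited raw counts per RefSeq transcript, made from strand-specific libraries of a KAPA mRNA kit, per the labels' protocols. STAR 2.5.2b, DESeq2 and the builds mm10 and mm9 are named per the submitters' processing notes, with no roles; the counting program and whether it used strand are not given in the sources. Of 35745 transcripts, 35440 were matched to symbols through the RefSeq table, 188 through GENCODE vM21, and 117 were not matched (0.676% to 2.37% of counts, left out of totals and tests). For each gene the transcript with most counts was used, since isoforms share reads: 6 of the 10 genes had 1 transcript. Lengths are those of the GENCODE vM21 transcripts.

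Genes were filtered by filterByExpr, scaled by TMM and fitted with edgeR 4.0.16 (R 4.3.3) by robust quasi-likelihood on the 9 libraries together (terms: group), two-sided, with Benjamini-Hochberg adjustment and calls below 0.05. TMM factors ranged from 0.8308 to 0.8871 with LPS and from 1.338 to 1.351 without. Standard errors were derived from the F statistic (log2 fold change divided by its root). Replicates differed by more than counting noise (chi-square per degree of freedom 2.78 to 23.7). DESeq2 1.42.0, limma-voom (limma 3.58.1), other scalings and filters, summed isoforms, 2-group fits, a replicate block and leaving out libraries were alternatives. On data simulated for D2HG_LPS over Veh_LPS (11539 genes), the edgeR fit found 47% of the 66 genes set to 1.5-fold, 78.8% of the 66 set to 2-fold and 93.8% of the 65 set to 4-fold. It also called 11 of the 11342 genes left as they were. Counting intervals (95%) are exact binomial and cover counting error only.

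All 10 genes are reported in every comparison, with up to 3 called genes of smallest p in each of 5 pathway lists and comparison. The genes, lists and rules were chosen with earlier results of these data known. RefSeq promoters matched 9 of the 10 genes.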

Additional observations from a re-analysis of the deposited data

How the results depend on the processing

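The 9 calls of the 10 genes in Veh_LPS over Veh_N, and the 9 in D2HG_LPS over Veh_N, kept their direction and side of the threshold in all 19 alternatives. Alox5 was called lower in D2HG_LPS over Veh_N with upper-quartile scaling (-0.84) and with library totals alone (-1.15), as it was in Veh_LPS over Veh_N, but it passed the filter only through Veh_N. In D2HG_LPS over Veh_LPS, leaving out 1 library gave 0 to 1 of the 10 genes called higher, 0 to 1 called lower, and 0 to 2 pathway genes called higher. Library totals alone gave 5 pathway genes higher in Veh_LPS over Veh_N and 5 in D2HG_LPS over Veh_N (12 each with TMM), 2 in D2HG_LPS over Veh_LPS, and turned Abcc1 to -0.05 in Veh_LPS over Veh_N. The labels do not say whether replicate numbers pair the libraries. Deviations of same-numbered libraries correlated between -0.456 and 0.191 over genes, and not every library correlated best with its own number. With so few libraries in a group, these correlations cannot show that pairing was absent. With the replicate block, 0 pathway genes were called higher with D2HG, since Zadh2 had an adjusted p of 0.0781 by edgeR; Ptgs2 (-0.61, adjusted p = 0.0355) and Ptges (0.69, adjusted p = 0.0466) were still called, and over all genes 53 were higher and 40 lower. Without the library of each group with most counts in unmatched transcripts (Veh_LPS replicate 3, Veh_N replicate 1 and D2HG_LPS replicate 1, chosen after seeing the data), 0 pathway genes were called higher with D2HG.

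Changes of sign in D2HG_LPS over Veh_LPS concerned values near 0 that were not called. Alox5 went to 0.02 with upper-quartile scaling, 0.06 with library totals, 0.03 and 0.12 without D2HG_LPS replicate 1 and 2, 0.03 and 0.01 without Veh_LPS replicate 1 and 3, 0.01 without Veh_LPS replicate 3 and Veh_N replicate 1 together, and 0.05 without these and D2HG_LPS replicate 1. Ptgs1 went to 0.02 without D2HG_LPS replicate 2, and Hpgds to 0.01 without Veh_LPS replicate 3, 0.01 without it and Veh_N replicate 1, and 0.03 without all 3 libraries. Leaving out 1 library gave -0.18 to 0.12 for Alox5, -0.23 to 0.02 for Ptgs1 and -0.13 to 0.01 for Hpgds. The cause was not tested. Scaling moved the share of calls that were higher: in Veh_LPS over Veh_N from 47.4% (4071 higher, 4516 lower) to 33.2% with upper-quartile scaling and 21.8% with library totals, in D2HG_LPS over Veh_N from 48.8% to 34.4% and 23%, and in D2HG_LPS over Veh_LPS from 54.7% (134 higher, 111 lower) to 34.3% with DESeq2 (179 and 343) and 74.4% with library totals (212 and 73). Leaving out 1 library gave 29 to 271 lower and 35 to 230 higher calls there. Few counts limit Alox5 and Ltc4s.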
